A study of Sus scrofa with 6 samples.

Results

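The genes described here encode the actin, myosin and tubulin cytoskeleton, and their RNA was measured in ovarian follicles of prepubertal gilts (Sus scrofa) on 6 Affymetrix arrays. They were chosen by symbol: the actin-related proteins, the subunits of the Arp2/3 complex, alpha-actinins, cofilins, capping protein, beta-thymosins, tropomyosins, myosin heavy and light chains, alpha-, beta- and gamma-tubulins and the gamma-tubulin complex. TPM2, MYH11 and MYL9, which mark smooth muscle, were left out by that rule. It found 46 genes among the 6765 that have a probe set with a single gene symbol, on 75 probe sets, and each gene was represented by its brightest probe set on average over the 6 arrays. Of these genes, 35 were bright enough to be tested and 11 were not. No treatment is named, and the follicles fell into 3 stages by their titles, with 2 arrays per stage: primordial follicles, middle stage follicles and last stage follicles, isolated by morphology and diameter. The samples' description field, in contrast, names primordial follicles for all 6, so the stages rest on the titles alone. The titles call the arrays of a stage biological replicates, but the labels do not give the number of animals or follicles pooled, the strain or the age in days.

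Actin filaments grow from their barbed ends. The Arp2/3 complex starts new branches on existing filaments, capping protein stops growth at the barbed end, cofilins sever older filaments, and beta-thymosins hold back free actin monomers. Alpha-actinins cross-link filaments and tropomyosins lie along them. Conventional myosins pull filaments past each other, while unconventional myosins carry membranes and vesicles. Microtubules are polymers of alpha- and beta-tubulin that start from gamma-tubulin complexes, and the dynein motor with its partner dynactin moves cargo along them. In follicles these polymers shape granulosa and theca cells and carry the processes through which granulosa cells contact the oocyte, and the oocyte uses both systems for its spindle and its divisions.

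The values are linear probe set intensities in arbitrary units, and differences between stages are given on the log2(signal + 16) scale with their standard error. Each array had been scaled to a trimmed mean of 500.1, while the median signal ranged from 119.3 to 169.9 and was highest in the middle stage. Each stage is bulk tissue, so fewer cells of a type and less RNA per cell cannot be told apart. The summed signal of 8 oocyte markers was 337.0 to 341.0 in primordial, 16600 to 18020 in middle and 692.0 to 716.1 in last stage follicles, with BMP15 below the filter, so the defining oocyte genes were weak on arrays titled as primordial follicles. The 8 leukocyte markers on the array summed to 17080 to 18720 in primordial, 1010 to 1412 in middle and 1628 to 4040 in last stage follicles, with PTPRC and CD14 below the filter. The 8 smooth muscle and pericyte markers on the array summed to 6807 to 7406 in primordial, 9422 to 11440 in middle and 33320 to 33750 in last stage follicles. The sums of other cell types shifted too. The 8 granulosa markers summed to 24430 to 34900 in primordial, 8532 to 12730 in middle and 33400 to 39110 in last stage follicles, with FOXL2 and CYP19A1 below the filter. The 5 theca markers summed to 5820 to 6318, 3094 to 4192 and 18020 to 21400 in these stages. Both sums mix genes that moved in opposite directions. Tested granulosa markers differed by -3.4 to 5.84 in last minus middle, and theca markers by -3.04 to 2.36 in middle minus primordial. The 5 stromal fibroblast markers on the array summed to 810.7 to 974.1 in primordial, 12340 to 19470 in middle and 13900 to 15050 in last stage follicles. For the 5 endothelium markers on the array the sums were 1346 to 1440, 719.0 to 841.7 and 2155 to 2833 in these stages, with KDR below the filter. The 3′ over 5′ log2 difference of control probe sets, a measure of RNA length, was taken without the added 16. On the brighter pair of actin control probe sets it averaged 3.38 ± 0.25 in primordial, 4.60 ± 0.54 in middle and 3.73 ± 0.23 in last stage follicles (SD, n = 2). The dimmer actin pair averaged -0.98 ± 0.03, -1.61 ± 1.42 and -1.09 ± 0.68 in these stages. Its 3′ signals were low, from 14.9 on middle replicate 1 to 133.0. The brightest GAPDH pair averaged 3.06 ± 0.53, 3.04 ± 0.35 and 1.88 ± 0.02, and the other GAPDH pairs 2.46 ± 0.24, 2.53 ± 0.16 and 1.62 ± 0.38, and 3.26 ± 0.16, 3.09 ± 0.02 and 2.7 ± 0.16. The EF1A pair averaged 0.84 ± 0.24, 1.1 ± 0.33 and 0.76 ± 0.09. The middle stage was thus highest on some pairs and not on others. The part of these shifts in any difference described here was not tested.

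Most tested cytoskeletal genes were brightest in primordial follicles, and, counted separately, most were dimmest in the middle stage. Of the 35, 24 (68.6%) had their highest mean in primordial follicles, against 36.1% of all 5432 genes tested, and 20 (57.1%) had their lowest mean in the middle stage, against 35% of genes. With arrays centred on their medians, 25 of 35 (71.4%) were highest in the primordial stage, beside 52.9% of all genes, and 25 (71.4%) were lowest in the middle stage, beside 55.1%. This scaling check was chosen after the data had been seen.

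**Figure D1:**
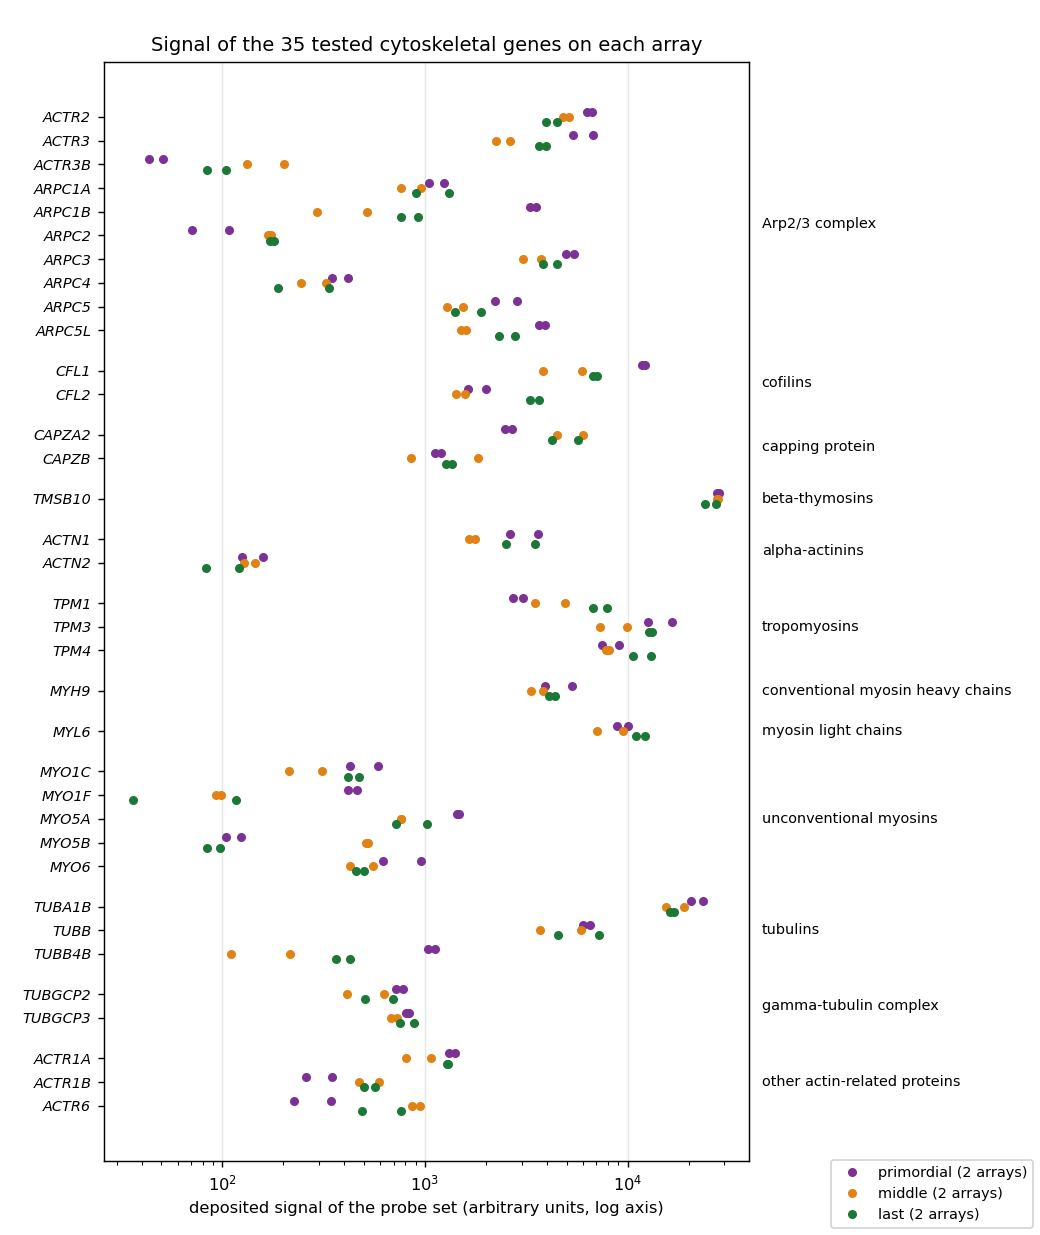
Signal of the 35 tested cytoskeletal genes on each of the 6 arrays, on a log axis in arbitrary units, with 2 points per stage and genes grouped by family. Levels can be compared between stages within a gene but not between genes. Primordial points lie to the right of middle points for most genes, with MYO5B, ACTR6, ACTR3B and CAPZA2 among those that run the other way.

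Between middle and primordial follicles, 6 of the 35 genes were higher in the middle stage and 12 were lower at an adjusted p under 0.05 in limma. Over the 5432 genes with 1 probe set each, 22.9% were called higher and 22.5% lower in this comparison. The median difference of the 35 genes was -0.41, against 0.06 for all genes. The genes called higher were ACTR1B, ACTR3B, ACTR6, ARPC2, CAPZA2 and MYO5B, of which ACTR6 is a subunit of a chromatin remodelling complex rather than of a filament. Of these, ACTR3B passed the filter on signal only through its middle arrays. Signals of the stages did not overlap for 30 of the 35 genes, 7 higher and 23 lower in the middle stage, beside 40.7% and 35.4% of all genes. Centring each array on its median turned the 6 higher and 12 lower into 4 and 26. The centring lowered every middle array relative to the primordial ones. The median over all probe sets tested, which can include several per gene, then moved from 0.22 to -0.20. That of the 35 genes moved from -0.41 to -0.83. The count of 6 was lower without middle replicate 2, and that of 12 without middle replicate 1. Calls over all probe sets were also fewer without either of these arrays.

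Between last and middle follicles, 9 of the 35 were higher in the last stage and 1, MYO5B, was lower, beside 8.8% and 7.23% of all genes called. Their median difference was 0.22, against 0.02 for all genes. The 9 were ACTN1, ACTR3, ARPC1B, ARPC5L, CFL2, TPM1, TPM3, TPM4 and TUBB4B, and the comparison shares its middle arrays with the one before. The count of 9 was lower when any 1 middle or last array was left out, and so was the count over all probe sets. Each such fit leaves 1 array in a stage. The median difference of the 35 genes was then 0.15 to 0.44, beside -0.09 to -0.06 over all probe sets. Over all probe sets it was -0.07 with every array kept. Between last and primordial follicles, 7 were higher in the last stage and 9 lower, beside 17.2% and 15.8% of all genes, with a median of -0.14 against 0.06. Both counts were lower when any 1 array was left out, and so was the count over all probe sets. A stage difference of any kind passed limma's F-test for 22 of the 35 (62.9%), beside 48.6% of all genes.

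**Figure D2:**
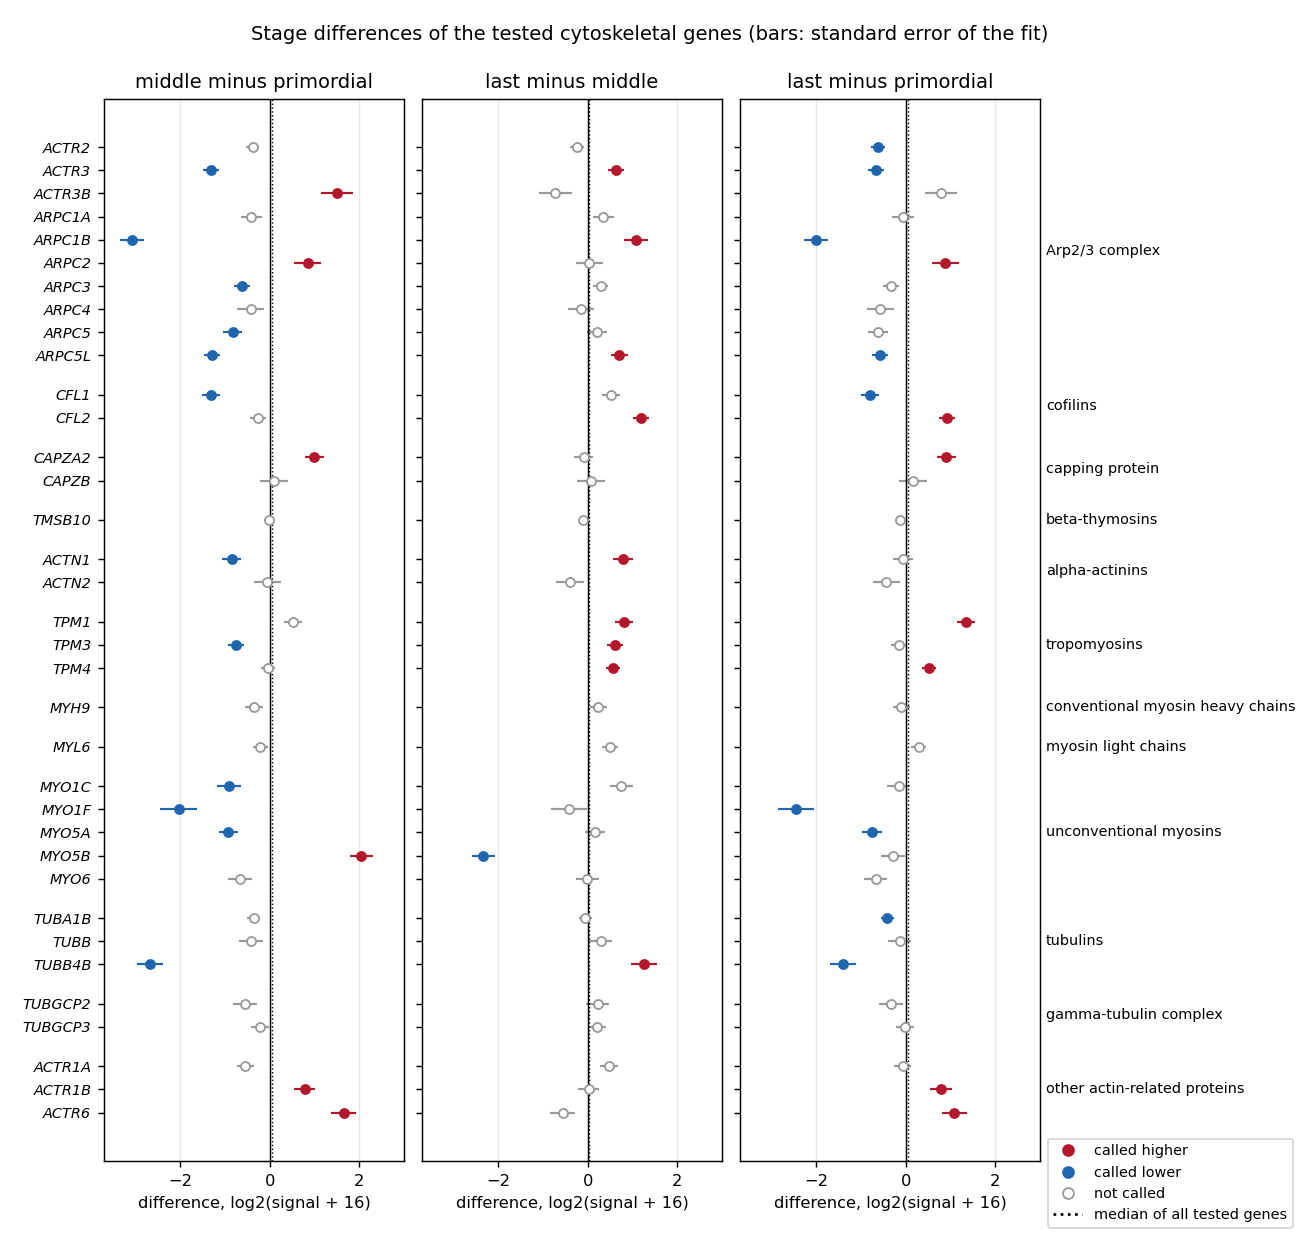
Difference between stages of each tested cytoskeletal gene on the log2(signal + 16) scale, with bars for the standard error of the fit, filled points for genes called at an adjusted p under 0.05, and a dotted line at the median of all 5432 genes. Of the 35 genes, 12 lie to the left among the called points of middle minus primordial and 9 to the right in last minus middle, and MYO5B moves against both.

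All 10 Arp2/3 genes on the array were tested, and 2 were higher and 5 lower in middle than in primordial follicles, beside 22.9% and 22.5% of all genes. The largest difference among them was that of ARPC1B, an isoform of a regulatory subunit that in humans is prominent in blood cells. Its signal was 3516.1 and 3289.3 in primordial, 292.5 and 514.2 in middle and 757.8 and 927.6 in last stage follicles. The 3 stages did not overlap, with the middle stage lowest. It was 8.45-fold lower in middle than in primordial follicles (-3.08 ± 0.27, adjusted p = 4.03e-05), 4.0-fold lower in last than in primordial follicles (-2.0 ± 0.27, adjusted p = 0.000768) and higher in last than in middle follicles (1.08 ± 0.27, adjusted p = 0.0237). The leukocyte marker sum was highest in primordial and lowest in middle follicles as well, and its part in the ARPC1B difference was not tested. ARPC1A, the other isoform of that subunit, had 1045.8 and 1234.4 in primordial, 756.7 and 954.7 in middle and 1305.3 and 905.8 in last stage follicles. The last stage overlapped both other stages, and ARPC1A passed no test at the settings used throughout. With arrays centred on their medians it was called lower in middle minus primordial.

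ACTR3 and ACTR2 are the actin-like subunits on which a branch starts. The ACTR3 signal was 5398.8 and 6780.8 in primordial, 2247.1 and 2615.7 in middle and 3643.8 and 3948.7 in last stage follicles, with no overlap between stages. It fell by 1.31 ± 0.18 in middle against primordial follicles (adjusted p = 0.000387), and in the last stage it was higher than in the middle stage by 0.64 ± 0.18 (adjusted p = 0.036) and different from primordial follicles by -0.67 ± 0.18 (adjusted p = 0.0182). ACTR2 had 6660.9 and 6268.7 in primordial, 5151.8 and 4785.1 in middle and 3936.2 and 4496.3 in last stage follicles. Its signals thus stood in the order of the stages, highest in primordial and lowest in last stage follicles. Its difference was -0.38 ± 0.15 in middle minus primordial (adjusted p = 0.0653), and it passed in last minus primordial at -0.62 ± 0.15 (adjusted p = 0.0136). ACTR3B, a paralog of ACTR3, went the other way, with 43.5 and 51.1 in primordial, 131.7 and 201.9 in middle and 103.6 and 83.5 in last stage follicles. These low signals did not overlap, and ACTR3B was higher in middle than in primordial follicles by 1.51 ± 0.36 (adjusted p = 0.00726). Its mean signal of 102.5 was near the filter at 91.3. The stage means were 47.3 in primordial, 166.8 in middle and 93.55 in last stage follicles. ACTR3B thus entered the test through its middle arrays, and such a filter favours genes that are high there. The call was kept with no filter on signal.

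ARPC5 and ARPC5L are isoforms of the smallest subunit, and both were lower in the middle stage than in primordial follicles. ARPC5L had 3912.3 and 3636.3 in primordial, 1498.9 and 1592.8 in middle and 2783.5 and 2306.1 in last stage follicles. No stages overlapped, and the differences were -1.28 ± 0.18 for middle minus primordial (adjusted p = 0.000426), 0.71 ± 0.18 for last minus middle (adjusted p = 0.0241) and -0.57 ± 0.18 for last minus primordial (adjusted p = 0.0333). ARPC5 had 2856.8 and 2211.7 in primordial, 1284.0 and 1538.2 in middle and 1403.6 and 1882.5 in last stage follicles, and it was lower in middle than in primordial follicles (-0.83 ± 0.22, adjusted p = 0.0127). The last stage overlapped the middle one but not the primordial one. ARPC3, another small subunit, had 5419.6 and 4947.7 in primordial, 3039.2 and 3730.2 in middle and 3811.7 and 4471.2 in last stage follicles, and it too was lower in middle than in primordial follicles (-0.62 ± 0.17, adjusted p = 0.0162). ARPC2, which with ARPC4 forms the core that contacts the mother filament, had 108.3 and 71.1 in primordial, 174.4 and 167.8 in middle and 180.5 and 171.1 in last stage follicles. Its primordial signals lay below all others, and it was higher by 0.85 ± 0.30 in middle (adjusted p = 0.0415) and by 0.88 ± 0.30 in last stage follicles (adjusted p = 0.047) than in primordial follicles. ARPC4 had 346.8 and 417.8 in primordial, 243.1 and 324.3 in middle and 187.3 and 336.8 in last stage follicles, and passed no test at the settings used throughout. With arrays centred on their medians it was called lower in middle minus primordial.

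Within the complex, the middle minus primordial calls of ACTR3, ARPC1B and ARPC5L held in every alternative tried, whereas those of the other 4 called subunits ended in at least 1. Without middle replicate 1 the adjusted p was 0.14 for ARPC2, 0.111 for ARPC3 and 0.0912 for ARPC5; without middle replicate 2 it was 0.061 for ACTR3B and 0.111 for ARPC2; without primordial replicate 1 it was 0.099 for ARPC3 and 0.104 for ARPC5; and without primordial replicate 2 it was 0.218 for ARPC2 and 0.0516 for ARPC3. The last minus middle calls of ACTR3, ARPC1B and ARPC5L ended without middle replicate 1, at adjusted p = 0.213, 0.156 and 0.138, those of ACTR3 and ARPC5L without middle replicate 2 (0.0716 and 0.0722) or last replicate 1 (0.0661 and 0.102), and those of ACTR3 and ARPC1B without last replicate 2 (0.11 and 0.0891). In last minus primordial, the ARPC1B call held throughout, the ARPC2 call ended without any 1 of the 6 arrays (adjusted p = 0.0533 to 0.237), and those of ACTR2, ACTR3 and ARPC5L ended without primordial replicate 2 (adjusted p = 0.0577, 0.149 and 0.107). Those of ACTR2 and ACTR3 also ended without last replicate 1 (0.0619 and 0.0711), those of ACTR2 and ARPC5L without primordial replicate 1 (0.0866 and 0.165), and that of ARPC5L without last replicate 2 (0.137). Averaging all probe sets of ACTR3 ended its last minus middle and last minus primordial calls (adjusted p = 0.0742 and 0.178), and both ARPC2 calls ended with quantile normalization, median centring or no filter (adjusted p = 0.0789 to 0.272).

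The cofilins were brightest in different stages. CFL1, the cofilin of most non-muscle cells, was brightest in primordial follicles, and CFL2, the isoform known from muscle, was brightest in the last stage. CFL1 had 12165.8 and 11823.0 in primordial, 3834.0 and 5953.8 in middle and 7077.7 and 6747.5 in last stage follicles. The stages did not overlap, and CFL1 was 2.5-fold lower in middle than in primordial follicles (-1.32 ± 0.20, adjusted p = 0.000687), with -0.79 ± 0.20 for last minus primordial (adjusted p = 0.0146) and 0.53 ± 0.20 for last minus middle (adjusted p = 0.0977). CFL2 had 1631.0 and 2000.7 in primordial, 1422.5 and 1576.7 in middle and 3655.2 and 3284.1 in last stage follicles. The last stage stood well above both others, with 1.2 ± 0.18 over the middle stage (adjusted p = 0.00264) and 0.93 ± 0.18 over primordial follicles (adjusted p = 0.00511), while middle minus primordial was -0.27 ± 0.18 (adjusted p = 0.26). Both CFL2 calls, and that of CFL1 in middle minus primordial, held in every alternative tried. That of CFL1 in last minus primordial ended without primordial replicate 1 or 2, at adjusted p = 0.0709 and 0.0627. The CFL1 probe set is of a type that the manufacturer marks as matching several transcripts, and the part of this was not tested. The smooth muscle, theca and endothelium marker sums, like CFL2, were highest in the last stage, and their part was not tested.

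Capping protein and thymosin beta-10 act on growth at the barbed end and on the pool of free actin. CAPZA2, an alpha subunit of capping protein, had 2488.6 and 2694.3 in primordial, 6020.2 and 4473.1 in middle and 5665.9 and 4213.8 in last stage follicles. Middle and last stages overlapped each other and lay above the primordial stage, by 1.0 ± 0.21 in middle (adjusted p = 0.00362) and 0.91 ± 0.21 in last stage follicles (adjusted p = 0.00915). The second of these ended without last replicate 1 (adjusted p = 0.0531) or primordial replicate 1 (adjusted p = 0.0551). CAPZB, the beta subunit that pairs with it, had 1198.4 and 1123.7 in primordial, 847.9 and 1830.4 in middle and 1262.4 and 1359.3 in last stage follicles, so that its middle arrays spanned all the others and no test passed. TMSB10, which binds actin monomers, had 27620.8 and 28395.0 in primordial, 27653.8 and 27925.4 in middle and 24013.1 and 27428.3 in last stage follicles, and passed no test at the settings used throughout. With arrays centred on their medians it was called lower in middle and in last stage than in primordial follicles. The TMSB10 signals lay near the highest value of an array, which was 33783.6 to 47773.3. Whether the scale compressed differences there was not tested.

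Tropomyosins were bright in the last stage, where all 3 tested members exceeded the middle stage. TPM1 had 3049.7 and 2708.9 in primordial, 3490.6 and 4892.5 in middle and 7925.3 and 6715.6 in last stage follicles. Its signals followed the order of the stages without overlap, with 0.52 ± 0.20 for middle minus primordial (adjusted p = 0.0526), 0.82 ± 0.20 for last minus middle (adjusted p = 0.0209) and 1.34 ± 0.20 for last minus primordial (adjusted p = 0.00124). TPM4 had 7473.4 and 9020.8 in primordial, 8073.8 and 7856.9 in middle and 13022.7 and 10679.4 in last stage follicles. Primordial and middle follicles overlapped, and the last stage was above both, by 0.57 ± 0.16 over the middle (adjusted p = 0.037) and 0.52 ± 0.16 over the primordial stage (adjusted p = 0.0307). TPM3 had 12563.6 and 16477.1 in primordial, 7272.3 and 9912.0 in middle and 13250.5 and 12780.8 in last stage follicles. It dipped in the middle stage, with -0.76 ± 0.18 for middle minus primordial (adjusted p = 0.00811) and 0.62 ± 0.18 for last minus middle (adjusted p = 0.0481), and its last arrays lay within the primordial range.

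ACTN1, the non-muscle alpha-actinin found at focal adhesions and stress fibres, had a dip like that of TPM3. It had 3594.5 and 2631.0 in primordial, 1756.5 and 1649.7 in middle and 3469.1 and 2502.0 in last stage follicles. Primordial and last stages overlapped, and the middle stage lay below both, with -0.85 ± 0.22 for middle minus primordial (adjusted p = 0.0116) and 0.79 ± 0.22 for last minus middle (adjusted p = 0.0387). ACTN2, the alpha-actinin of the sarcomere, had 125.2 and 158.4 in primordial, 145.1 and 127.4 in middle and 120.5 and 83.0 in last stage follicles and passed no test. The 8 smooth muscle and pericyte markers, of which 6 were called higher in last than in middle follicles and 7 higher than in primordial follicles, moved with TPM1 and TPM4. The theca and endothelium marker sums were highest in the last stage too. The part of these cell types was not tested. Of the tropomyosin and alpha-actinin calls, only that of TPM1 in last minus primordial held in every alternative tried. With quantile normalization all 3 tropomyosin calls in last minus middle ended (TPM1 0.61, TPM3 0.26 and TPM4 0.26, adjusted p = 0.0558, 0.337 and 0.286), as did TPM3 in middle minus primordial (-0.37, adjusted p = 0.113). Without middle replicate 1 the last minus middle adjusted p was 0.166 for TPM1, 0.317 for TPM3, 0.167 for TPM4 and 0.163 for ACTN1, and without last replicate 1 it was 0.0876, 0.124, 0.15 and 0.172. Without middle replicate 2 it was 0.135 for TPM4 and 0.147 for ACTN1, and without last replicate 2 it was 0.0942 for TPM3. In middle minus primordial, ACTN1 ended without middle replicate 1, middle replicate 2 or primordial replicate 1 (adjusted p = 0.0546 to 0.102), and TPM3 without middle replicate 1 or primordial replicate 2 (0.0819 and 0.0721). TPM4 in last minus primordial ended without middle replicate 1 or 2, last replicate 1 or primordial replicate 1. That call also ended with arrays centred on their medians (0.30, limma adjusted p = 0.184), with no filter (0.0703) and with only the 4 arrays of the 2 stages (0.059).

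Among the 5 tested unconventional myosins MYO5B was the only one called higher in the middle than in the primordial stage. MYO5B moves recycling endosomes and is best known from epithelia. It had 103.9 and 123.3 in primordial, 522.0 and 513.7 in middle and 97.1 and 83.8 in last stage follicles. Both middle arrays were far above the other 4, 2.05 ± 0.26 over primordial follicles (adjusted p = 0.00027), and the last stage was 5.02-fold lower than the middle (-2.33 ± 0.26, adjusted p = 0.000442). Last minus primordial was -0.28 ± 0.26 (adjusted p = 0.429). The oocyte marker sum given above also peaked in the middle stage, and so did that of 5 surface epithelium markers, which was 352.6 to 481.5 in primordial, 1351 to 1385 in middle and 221.3 to 239.8 in last stage follicles with KRT18 and KRT19 below the filter. Their part in the MYO5B difference was not tested.

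MYO1F, a membrane-linked myosin known from leukocytes, was highest in the primordial stage. It had 416.1 and 461.5 in primordial, 93.0 and 98.2 in middle and 36.3 and 116.6 in last stage follicles. Middle and last stages overlapped, and MYO1F was 4.07-fold lower in middle (-2.03 ± 0.41, adjusted p = 0.00344) and 5.45-fold lower in last stage follicles (-2.45 ± 0.41, adjusted p = 0.00239) than in primordial follicles. The leukocyte marker sum was likewise highest in primordial follicles, and on the last arrays both it and MYO1F were higher in replicate 2; its part was not tested.

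MYO5A, which carries vesicles and organelles along actin, had 1441.2 and 1463.4 in primordial, 760.0 and 762.2 in middle and 1020.3 and 715.0 in last stage follicles. It was lower than in primordial follicles in the middle (-0.92 ± 0.22, adjusted p = 0.0074) and last stages (-0.75 ± 0.22, adjusted p = 0.0263), which overlapped each other. The first call ended when all tested probe sets of the gene were averaged (-0.30, adjusted p = 0.282), and the second without primordial replicate 1 or 2 or last replicate 2, at adjusted p = 0.102 to 0.128. MYO1C, which links membranes to actin, had 582.9 and 428.1 in primordial, 214.1 and 310.0 in middle and 416.2 and 473.6 in last stage follicles, and was lower in middle than in primordial follicles (-0.91 ± 0.26, adjusted p = 0.0176). That call ended without middle replicate 1 (adjusted p = 0.127) or primordial replicate 1 (adjusted p = 0.124). MYO6, which walks to the pointed end, had 623.2 and 959.5 in primordial, 551.8 and 424.4 in middle and 501.0 and 458.2 in last stage follicles, with both primordial arrays above the rest. It passed no test at the settings used throughout, but was called lower in middle minus primordial with quantile normalization or median centring.

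The conventional non-muscle myosin parts passed no test at the settings used throughout, though both were called lower in middle minus primordial with arrays centred on their medians. MYH9, the heavy chain of non-muscle myosin II, had 3898.3 and 5317.9 in primordial, 3336.8 and 3830.6 in middle and 4387.1 and 4096.3 in last stage follicles. MYL6, its essential light chain, had 8836.6 and 10084.7 in primordial, 7077.6 and 9437.8 in middle and 10943.9 and 12160.8 in last stage follicles. For MYL6 both last arrays were the brightest of the 6.

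**Figure D3:**
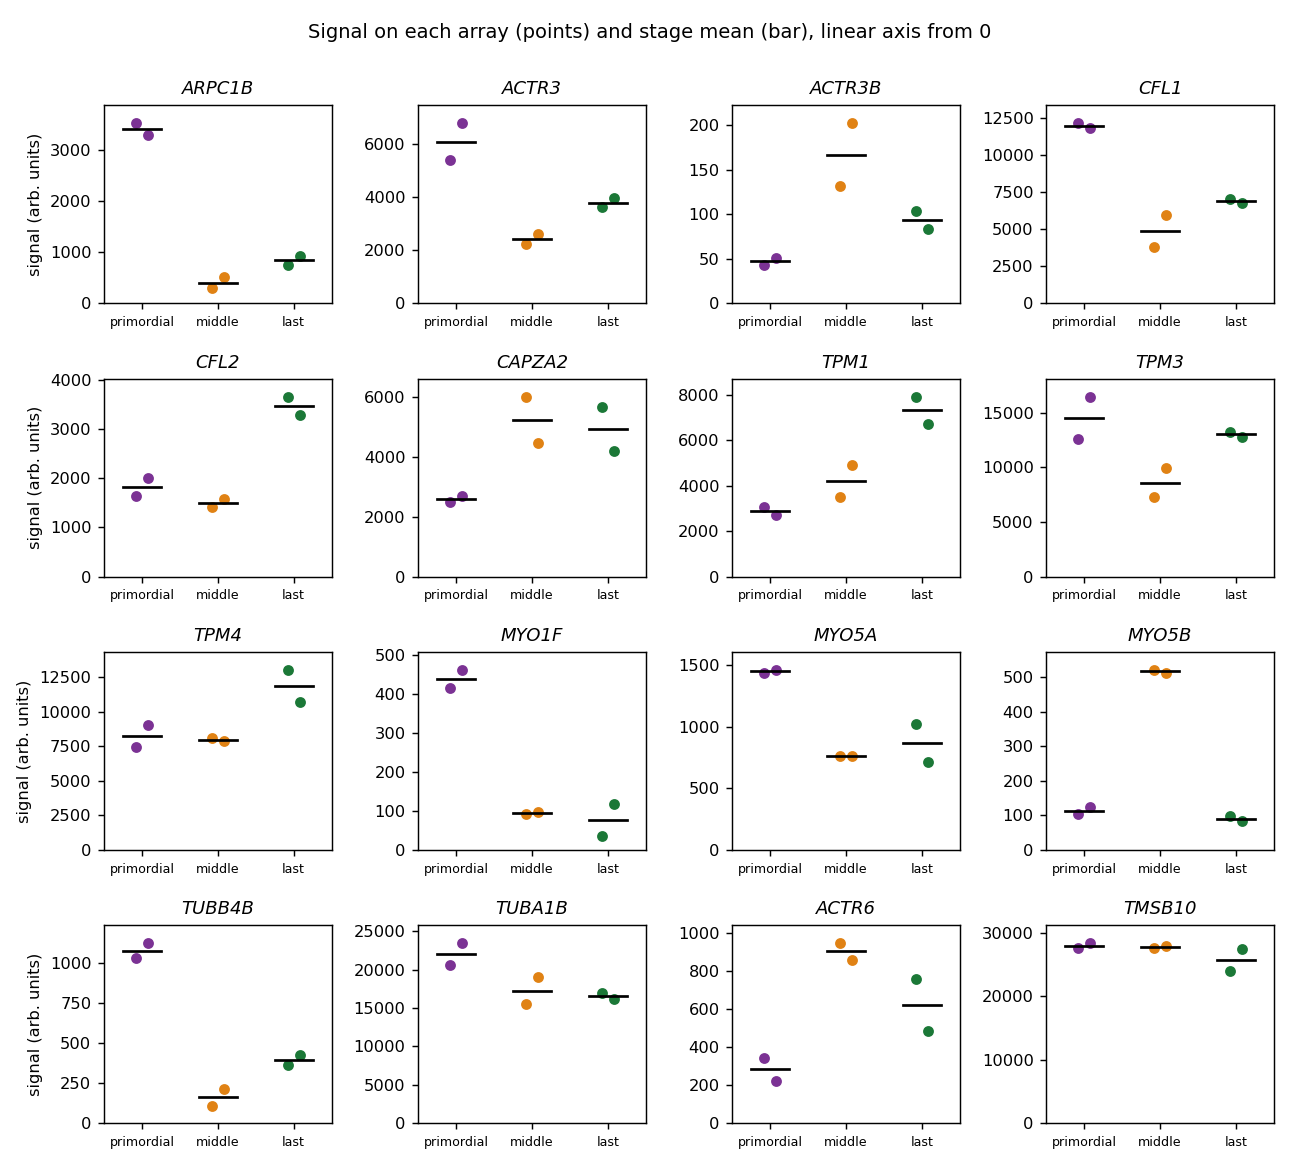
Signal in arbitrary units of 16 of the cytoskeletal genes on each array (points) and the mean of the 2 arrays of a stage (bars), on linear axes that start at 0 and differ between panels. MYO5B at 522.0 and 513.7 stands out in the middle stage, CFL2 and TPM1 are highest in the last stage, and ARPC1B, MYO1F and TUBB4B are highest in primordial follicles.

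Among the tubulins the beta-tubulin TUBB4B differed most. TUBB4B, a widely expressed isotype that is also found in cilia, had 1030.0 and 1125.6 in primordial, 110.3 and 216.6 in middle and 364.3 and 426.1 in last stage follicles. No stages overlapped, and it was 6.38-fold lower in middle than in primordial follicles (-2.67 ± 0.29, adjusted p = 0.000132) and 2.67-fold lower in last than in primordial follicles (-1.41 ± 0.29, adjusted p = 0.00646), with 1.26 ± 0.29 for last minus middle (adjusted p = 0.019). The last of these ended without middle replicate 1 (adjusted p = 0.129) or last replicate 2 (adjusted p = 0.0686), and the other 2 held in every alternative tried. TUBB, another beta-tubulin, had 6022.7 and 6511.7 in primordial, 3710.7 and 5852.7 in middle and 7212.8 and 4512.3 in last stage follicles, and passed no test at the settings used throughout. It was called lower in middle minus primordial with arrays centred on their medians. TUBA1B, a major alpha-tubulin, had 20601.2 and 23466.6 in primordial, 15476.1 and 19007.0 in middle and 16966.6 and 16157.7 in last stage follicles. Its primordial arrays were the brightest, and last minus primordial passed narrowly at -0.41 ± 0.14 (adjusted p = 0.0474), a call that ended without any 1 of the 6 arrays (adjusted p = 0.0505 to 0.24). Tubulin isotypes are near-identical over much of their coding sequence, so how far a probe set reports 1 isotype is uncertain and was not tested here.

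The gamma-tubulin complex subunits TUBGCP2 and TUBGCP3, from which microtubules start, passed no test at the settings used throughout. Both were called lower in middle minus primordial with arrays centred on their medians. TUBGCP2 had 718.8 and 776.3 in primordial, 410.6 and 623.6 in middle and 691.6 and 506.2 in last stage follicles. TUBGCP3 had 836.0 and 804.3 in primordial, 678.1 and 726.6 in middle and 882.6 and 749.9 in last stage follicles. For both, the middle arrays lay below the primordial ones.

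ACTR1A and ACTR1B form the short filament at the core of dynactin. ACTR1A had 1400.0 and 1309.1 in primordial, 804.4 and 1068.1 in middle and 1304.4 and 1276.1 in last stage follicles. It passed no test at the settings used throughout, with -0.54 ± 0.20 for middle minus primordial (limma adjusted p = 0.0535). That difference was called with quantile normalization, median centring, the 60% filter or averaged probe sets. ACTR1B had 348.8 and 259.2 in primordial, 469.4 and 590.6 in middle and 566.6 and 501.4 in last stage follicles, with both primordial arrays lowest. It was higher than in primordial follicles by 0.78 ± 0.24 in middle (adjusted p = 0.0243) and 0.79 ± 0.24 in last stage follicles (adjusted p = 0.0308). Without primordial replicate 2 these had adjusted p = 0.163 and 0.19, the first also ended without middle replicate 2 (0.135), the second without last replicate 1 (0.115) or last replicate 2 (0.0516), and both ended with arrays centred on their medians (0.273 and 0.12).

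ACTR6, the actin-related subunit of a chromatin remodelling complex, had 342.4 and 224.2 in primordial, 946.9 and 860.8 in middle and 756.4 and 487.4 in last stage follicles. The middle stage was above the others without overlap, by 1.65 ± 0.28 over primordial follicles (adjusted p = 0.00134). The last stage exceeded primordial follicles by 1.09 ± 0.28 (adjusted p = 0.0166), which ended without last replicate 1 (0.0942), without primordial replicate 2 (0.119) or with arrays centred on their medians (0.0521).

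The 11 genes too dim for the test were MYH2, MYH7, MYH10, MYL1, MYL2, MYL3, MYL4, MYO1E, MYO7A, MYO10 and TUBA1A. Among them MYH2, MYH7, MYL1, MYL2 and MYL3 encode myosin chains of skeletal or cardiac muscle. The 8 other skeletal and cardiac muscle markers on the array were all below the filter too and summed to 187.1 to 214.0 in primordial, 316.7 to 482.0 in middle and 160.7 to 203.1 in last stage follicles. MYO10, which works at the tips of filopodia, had 7.4 and 6.7 in primordial, 89.7 and 45.6 in middle and 7.5 and 8.5 in last stage follicles. Both middle arrays were above the other 4, and with no filter on signal the differences were 1.81 ± 0.38 for middle minus primordial (adjusted p = 0.00869) and -1.75 ± 0.38 for last minus middle (adjusted p = 0.0273). None of the other 10 passed a test with no filter. MYH10, the other non-muscle heavy chain here, stayed between 26.6 and 57.7, MYO1E had its highest signal, 154.4, on a primordial array, and MYO7A had its highest, 86.3, on a last array.

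A list of 67 actin regulators and partners outside these families had 46 genes on the array, of which 2 were below the filter. Of the 44 tested, 12 were higher and 22 lower in middle than in primordial follicles, beside 22.9% and 22.5% of all genes, with a median of -0.55. Between last and middle follicles 8 were higher and 1 lower (median 0.24), beside 8.8% and 7.23%, and between last and primordial follicles 8 were higher and 13 lower (median -0.26), beside 17.2% and 15.8%. The probe sets of ACTB and ACTG1 gave different results. ACTB had 28887.1 and 30655.7 in primordial, 29390.4 and 29295.2 in middle and 25849.0 and 31123.8 in last stage follicles and passed no test, whereas ACTG1 had 22587.6 and 25089.9 in primordial, 14448.1 and 14615.1 in middle and 16798.2 and 17732.1 in last stage follicles. ACTG1 was lower than in primordial follicles by -0.71 ± 0.12 in middle (adjusted p = 0.00119) and -0.46 ± 0.12 in last stage follicles (adjusted p = 0.0159). These near-identical actins could share probes, which was not tested. The ACTB signals lay near the highest value of an array, which was 33783.6 to 47773.3, and whether the scale compressed differences there was not tested. The brighter 3′ actin control probe set had 22018.6 and 26863.8 in primordial, 15740.6 and 16071.9 in middle and 17503.0 and 19184.3 in last stage follicles. The contrast between the actins is therefore uncertain.

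The lowest middle minus primordial differences on that list belonged to the filament bundler LCP1 (-4.56 ± 0.45) and the barbed end capper CAPG (-3.92 ± 0.27), at adjusted p = 7.43e-05 and 1.36e-05. Both are known from leukocytes, whose marker sum was lowest in the middle stage, and its part was not tested. The membrane linker EZR was lower in the middle than in the primordial stage by -1.61 ± 0.21 (adjusted p = 0.000302). Higher in middle than in primordial follicles were LIMA1, a filament bundler (2.52 ± 0.39), the severing protein GSN (1.46 ± 0.24), the tropomyosin partner CALD1 (1.35 ± 0.28), the Arp2/3 activator WASL (1.28 ± 0.21), the monomer binder PFN2 (1.0 ± 0.17) and PPP1R12A, the targeting subunit of myosin phosphatase (0.94 ± 0.21). Their adjusted p-values ran from 0.000876 for LIMA1 to 0.00601 for PPP1R12A. That of WASL ended when its probe sets were averaged (0.55, adjusted p = 0.0649), and that of PPP1R12A ended without middle replicate 1 (0.0586), without primordial replicate 1 (0.0511) or with arrays centred on their medians (0.063). GSN was lower in last than in middle follicles (-1.65 ± 0.24, adjusted p = 0.00178), and PDLIM1, an alpha-actinin partner, was higher there (1.52 ± 0.23, adjusted p = 0.00251).

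A list of 47 microtubule genes was set beside these, with 36 on the array and MAP1B, KATNA1 and TTL below the filter. Of the 33 tested, 3 were higher and 10 lower in middle than in primordial follicles (median -0.15), 4 were higher and 1 lower in last than in middle follicles (median 0.07), and 5 were higher and 5 lower in last than in primordial follicles (median -0.03). The shares of all genes in these comparisons are those given for the actin list. MAP2, a microtubule stabiliser best known from neurons, had 628.4 and 809.7 in primordial, 255.7 and 150.3 in middle and 1476.6 and 1090.0 in last stage follicles. The stages did not overlap, with -1.78 ± 0.29 for middle minus primordial (adjusted p = 0.00101) and 2.60 ± 0.29 for last minus middle (adjusted p = 0.000439). Its relatives MAP1A and MAP4 were higher in last than in middle follicles too, by 1.78 ± 0.28 (adjusted p = 0.0028) and 0.88 ± 0.23 (adjusted p = 0.0272). Dynein and its regulators differed in direction. Lower in the middle than in the primordial stage were the heavy chain DYNC1H1 (-1.27 ± 0.20, adjusted p = 0.000923), PAFAH1B1 (-1.39 ± 0.20, adjusted p = 0.000542), which ended with averaged probe sets (-0.24, adjusted p = 0.285), and its partner NDEL1 (-1.32 ± 0.18, adjusted p = 0.000421). The light intermediate chain DYNC1LI2 was higher (1.03 ± 0.32, adjusted p = 0.0241), a call that ended without middle or primordial replicate 1 (0.174 and 0.159) and with quantile normalization or median centring (0.0616 and 0.143). NDEL1 was also lower in the last stage, at -1.97 ± 0.18 against primordial follicles (adjusted p = 0.000132). The dynactin subunits differed in direction: in middle minus primordial DCTN6 was higher (1.05 ± 0.16, adjusted p = 0.000853) and DCTN3 lower (-0.65 ± 0.20, adjusted p = 0.0238). The plus-end binder MAPRE1 was lower in last than in primordial follicles by -1.30 ± 0.19 (adjusted p = 0.0012), and the tubulin folding cofactors TBCA and TBCD were called higher and lower, at 0.46 ± 0.13 and -0.83 ± 0.25 in that comparison (adjusted p = 0.0275 and 0.0331). The dynactin subunit DCTN5 and DYNC1LI2 were higher in last than in primordial follicles (0.83 ± 0.20 and 1.04 ± 0.32, adjusted p = 0.0131 and 0.0319), and TPPP3, which bundles microtubules, was lower in middle than in primordial follicles (-1.38 ± 0.30, adjusted p = 0.0047). Leaving out 1 array ended the calls of DCTN3 (middle replicate 1 or either primordial array, adjusted p = 0.0624 to 0.151), of MAP4 (middle replicate 1 or either last array, 0.0546 to 0.18), of TBCA and TBCD (any last or primordial array, 0.0584 to 0.175), of DCTN5 (last replicate 1 or either primordial array, 0.061 to 0.0658), of DYNC1LI2 (last or primordial replicate 1, 0.179 and 0.19) and of TPPP3 (middle replicate 1, 0.0537).

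**Figure D4:**
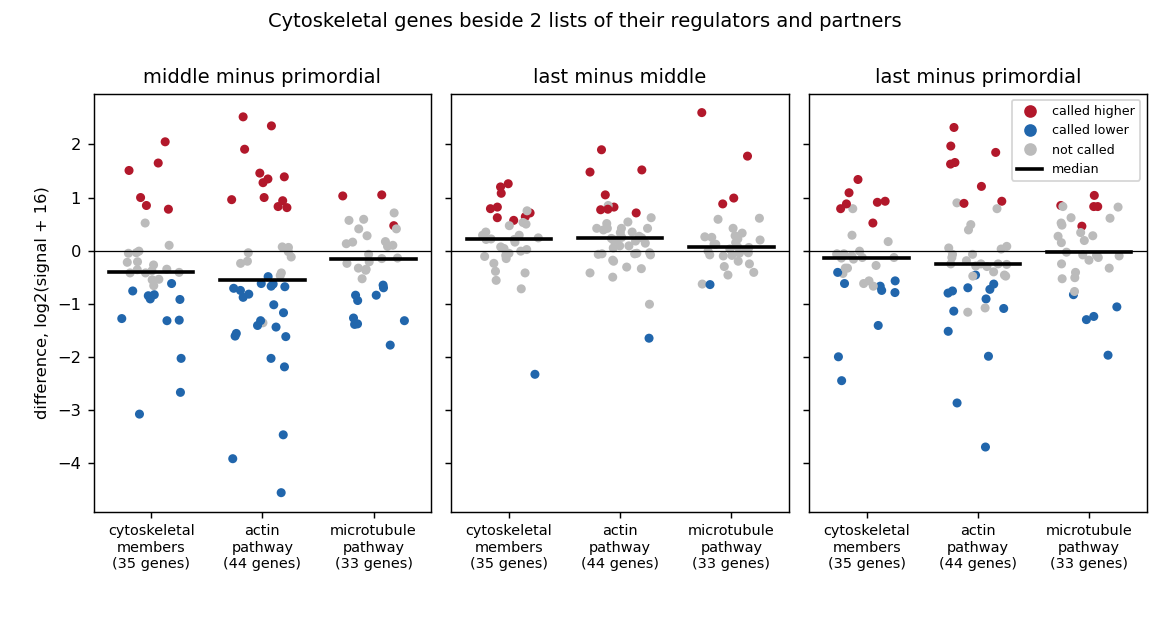
Stage differences on the log2(signal + 16) scale of the 35 tested cytoskeletal genes, 44 actin pathway genes and 33 microtubule pathway genes, with 1 point per gene coloured by call and a bar at the median. In middle minus primordial the medians are -0.41, -0.55 and -0.15, and in last minus middle they are 0.22, 0.24 and 0.07.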

How the data were processed

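Total RNA was extracted with Trizol and labelled as biotinylated cRNA, per the labels' protocols. The deposited table holds linear intensity values that the authors made with GCOS, per the submitters' processing notes, with no version given in the sources used here. Stages rest on titles. All 46 genes matched the RefSeq table by gene identifier. The 10 matching probe sets with several gene entries were left out, which included all those of TMSB4X.

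Here 124 control probe sets were removed, values were taken as log2(signal + 16), and probe sets in the dimmest 40% by mean signal (up to 91.3) were dropped, leaving 14399. limma 3.58.1 in R 4.3.3 (lmFit, eBayes with trend) was fitted to all 6 arrays without a replicate block, with 3 residual and 6.33 prior degrees of freedom. Benjamini-Hochberg adjustment ran over all of these, at a threshold of 0.05. The p-values rest on the spread between the 2 arrays of a stage, pooled over the 3 stages and moderated towards a trend over all probe sets tested. An exact permutation test of 2 against 2 could not go below 0.333. The number of arrays limits the precision. The fit was tested on simulated data. Tables and figures were made in Python 3.11.15 (matplotlib 3.10.9, numpy 2.4.6, pandas 2.3.3).

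The genes and lists were chosen with earlier results of these data known. Every member is named, and from the 2 pathway lists some of the up to 5 called genes with the smallest p in each comparison and direction; the rest, among them genes with smaller p, are not reported here. Alternatives were quantile normalization, median centring, pseudocounts of 1 and 64, no filter, a 60% filter, averaged probe sets, 4-array fits, a replicate block and each array left out.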

Additional observations from a re-analysis of the deposited data

How the results depend on the processing

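No called cytoskeletal gene changed direction in any of the 15 alternatives. Of the calls, 9 of 18 in middle minus primordial, 2 of 10 in last minus middle and 5 of 16 in last minus primordial were kept in all those in which the gene was tested. Calls were also gained: in middle minus primordial, quantile normalization newly called ACTR1A and MYO6 lower and TPM1 higher. Centring arrays on their medians gave 26 genes lower in middle minus primordial in place of 12, and 3 higher and 13 lower in last minus primordial in place of 7 and 9. In middle minus primordial it newly called 14 genes, all lower. Over all probe sets it changed the higher share of calls from 62.7% to 36.6% in middle minus primordial, from 42.3% to 62.9% in last minus middle and from 59.7% to 39.0% in last minus primordial. With no filter, more probe sets entered the adjustment, and 5 genes were higher and 2 lower in last minus middle and 4 higher in last minus primordial. The 60% filter dropped members, leaving 3 higher in middle minus primordial and 0 lower in last minus middle, where it removed MYO5B.

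Leaving out 1 array at a time gave 3 to 7 higher and 7 to 13 lower in middle minus primordial, 1 to 9 higher and always 1 lower in last minus middle, 2 to 5 higher and 3 to 8 lower in last minus primordial, and 15 to 21 with any stage difference. Over all probe sets, 4356 to 7189, 727 to 2172 and 2730 to 4297 were called in these comparisons, in place of 6821, 2481 and 4786. The lowest counts of all probe sets came without middle replicate 1 in the first 2 comparisons and without primordial replicate 2 in the third. Middle replicate 2 exceeded replicate 1 for 26 of the 35 genes. The 3′ over 5′ log2 difference was 4.98 in replicate 1 and 4.21 in replicate 2 on the brighter actin control pair. It was -2.62 and -0.61 on the dimmer pair, whose 3′ signal was only 14.9 in replicate 1. The cause of these changes was not tested.

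No shared effect of the replicate number was visible, since the correlations of replicate deviations between stages were 0.06, 0.03 and -0.05. Each deviation reflects only the difference between the replicates of a stage. These values therefore cannot exclude that arrays with the same replicate number shared animals or batches, which was not tested. With the replicate number as a block, 6 genes were higher and 12 lower in middle minus primordial, 9 and 1 in last minus middle, and 6 and 9 in last minus primordial; TPM4 in last minus middle (adjusted p = 0.0548) and ARPC2 in last minus primordial (adjusted p = 0.0547) were no longer called, and MYL6 in last minus middle was called higher.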

Other observations

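Several of the genes have a second, dimmer probe set that was tested but not used above. Of 16 such genes, 0 had probe sets called in opposite directions in the same comparison, a count for which both must pass. Middle minus primordial differed in sign between probe sets of MYO5A (-0.92 and 0.32), TMSB10 (-0.01 and 1.0) and TUBGCP2 (-0.55, and 1.12 on its dimmest). In last minus middle the second probe set did not pass for CFL2 (0.69, limma adjusted p = 0.129), TPM3 (0.34, 0.207) or ACTN1 (0.87, 0.1), while that of TPM4 did (0.85, 0.00782). The second probe set of TPM1 had 333.5 and 277.1 in primordial, 379.5 and 614.5 in middle and 1601.7 and 1422.7 in last stage follicles. Its last stage stood above both others, with 1.61 ± 0.26 for last minus middle (adjusted p = 0.00335) and 2.25 ± 0.26 for last minus primordial (adjusted p = 0.000387), against 0.82 and 1.34 for the brighter one. The dimmest tested probe set of TPM1 gave -0.01 ± 0.29 (adjusted p = 0.989) and 0.55 ± 0.29 (adjusted p = 0.183) in those comparisons. That of ACTR6 was also higher in middle than in primordial follicles (2.18 ± 0.45, adjusted p = 0.00353).

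For some genes the second probe set passed where the first did not. That of TMSB10 had 186.7 and 211.4 in primordial, 364.1 and 466.9 in middle and 239.3 and 232.1 in last stage follicles, with the middle arrays highest, and middle minus primordial was 1.0 ± 0.24 (adjusted p = 0.00772). MYO5A had 393.0 and 319.7 in primordial, 414.0 and 478.7 in middle and 239.7 and 186.2 in last stage follicles on its second probe set, which was lower in last than in middle follicles (-1.02 ± 0.24, adjusted p = 0.0196). TUBGCP3 had 173.6 and 159.5 in primordial, 72.9 and 81.7 in middle and 82.3 and 59.1 in last stage follicles, and was lower in middle (-0.97 ± 0.33, adjusted p = 0.0362) and last stage follicles (-1.09 ± 0.33, adjusted p = 0.0316) than in primordial follicles. Second probe sets of CAPZB (0.67 ± 0.24, adjusted p = 0.0463) and ARPC1A (-0.70 ± 0.25, adjusted p = 0.0412) passed narrowly in middle minus primordial. Which transcripts each probe set measures was not tested.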
